A study of Homo sapiens with 20 samples.

Results

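Glycolysis and hypoxia genes were examined in a cultured line of immortalized human pericytes, the mural cells that wrap small blood vessels. The set held 39 genes, taken by name from the 58676 genes of the deposited count table, and covered glucose transporters and hexokinases, glycolytic enzymes, lactate handling, the hypoxia-inducible factors with their oxygen sensors, and genes known to be induced by those factors. After the filter on low counts 37 of the 39 remained among 12111 tested genes. The aldolase gene ALDOA and the oxygen sensor gene EGLN3 did not pass it.

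All groups were the same wild-type line, grown in a serum-containing medium. The control group carries no treatment label beyond that of a control. The other groups received, for 4 hours, 500 ng/mL recombinant human eNAMPT (the extracellular, cytokine-like form of the enzyme nicotinamide phosphoribosyltransferase), 20 ng/mL PDGF-BB (the platelet-derived growth factor dimer that signals through PDGFRB on pericytes), or both proteins. No group was placed in low oxygen according to the labels. Each group had 5 libraries, labelled as biological replicates 1 to 5 of one line, so the spread describes cultures of that line and not people.

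Glycolysis splits glucose into pyruvate in the cytosol, and cells that make lactate from that pyruvate export it through monocarboxylate transporters. Phosphofructokinase is the main committed step of the pathway. Its activity is tuned by fructose-2,6-bisphosphate, which the PFKFB enzymes make and remove. In normal oxygen the EGLN prolyl hydroxylases mark the factors encoded by HIF1A and EPAS1 for destruction, so these factors are controlled largely as proteins. In low oxygen the factor encoded by HIF1A raises transcription of many glycolytic genes.

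The libraries held 2894878 to 4011066 gene counts. Of 14 pericyte markers, 13 exceeded 1 CPM on average (counts scaled to 1000000 per library after TMM normalization), with PDGFRB at 130 CPM, while DES was at 0.561 CPM. All 8 fibroblast markers also exceeded 1 CPM. They summed to 4083 to 5463 CPM per library, against 1160 to 1963 CPM for the pericyte list. COL1A1 was at 3299 CPM in the fibroblast list and TAGLN at 1064 CPM in the pericyte list. Of 10 endothelial markers 3 exceeded 1 CPM (TIE1 at 3.59, TEK at 2.52 and PECAM1 at 1.73) and CDH5, VWF and KDR did not, with sums of 5.45 to 15.4 CPM per library. Of 8 leukocyte markers 3 exceeded 1 CPM (CD14 at 17.8, CD68 at 3.85 and CSF1R at 2.88), PTPRC was at 0.0729 CPM and LYZ at 0, with sums of 19.6 to 31.6 CPM. Of 7 neural or glial markers MBP alone exceeded 1 CPM, at 23.2. Epithelial markers as a list of 8, of which 4 exceeded 1 CPM and EPCAM and CDH1 did not, summed to 161 to 203 CPM in control libraries, 143 to 191 in eNAMPT libraries, 177 to 244 after PDGF-BB and 207 to 260 after both proteins. The part of these marker lists in the results was not tested. Known early targets moved with the labels: EGR1 rose by 1.63 on the log2 scale with PDGF-BB (adjusted p 2.68e-15, edgeR), and CXCL1 rose by 1.98 with eNAMPT (adjusted p 4.30e-12).

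Taken as a sum, the glycolytic enzymes were nearly level across the groups. The summed level of 16 glycolytic enzymes and lactate dehydrogenases was 9215 ± 387 CPM in control (SD, n = 5), 9213 ± 293 under eNAMPT, 9354 ± 299 under PDGF-BB and 9324 ± 225 under the combination. That sum was 0.922% of the gene counts in control. Its genes ran from 4.85 CPM for ALDOC to 3618 CPM for GAPDH in control. GAPDH, ENO1 (1927 CPM) and PKM (1246 CPM) were the largest parts of the sum, and ALDOA was not in it. Because RNA was taken from whole cultures, a change in the number of cells of a kind and a change in RNA per cell cannot be told apart in any of these values.

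Levels between genes were compared per kilobase of annotated exon, which assumes that reads fall along whole transcripts. On that scale GAPDH led in control with 1214 ± 95.1 CPM per kb (SD, n = 5), followed by ENO1 with 365 ± 19.1 and TPI1 with 278 ± 6.02. The control ranges of these 3 genes did not overlap. PKM, the last ATP-yielding enzyme of the pathway, stood at 145 ± 10.4 CPM per kb and LDHB, which interconverts lactate and pyruvate, at 119 ± 8.19. LDHA, also a lactate dehydrogenase, was at 72.0 ± 7.40 CPM per kb. Before division by length LDHA was higher, at 447 ± 45.9 CPM against 356 ± 24.4 for LDHB. Lengths were exon bases merged over all annotated transcripts, 6210 for LDHA and 2983 for LDHB. Among the isoforms of phosphofructokinase, PFKP was highest at 29.5 ± 2.19 CPM per kb, against 4.74 ± 0.321 for PFKL and 3.43 ± 0.286 for PFKM. HK1 exceeded HK2 in the same way, at 31.1 ± 1.23 against 1.46 ± 0.618. HIF1A, at 59.2 ± 5.83 CPM per kb, was above EPAS1 at 6.01 ± 0.618. The neuronal-type enolase ENO2 was at 5.70 ± 0.906.

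Some of these levels depend on how reads were assigned. A further deposited count table has equal or higher counts for the same genes and libraries, and what separates the tables is not given in the sources used here. The first table held only 3.07% of the second table's counts for PGAM1 (phosphoglycerate mutase), 53.3% for LDHA, 70.4% for HK2, 74.3% for BNIP3, 92.3% for SLC2A3 and 94.9% for PFKFB4. The median tested gene was at 99.5%, and 11.0% of tested genes were under 95%. Counts of these genes are therefore uncertain. The annotation lists 13 pseudogenes named after PGAM1, 6 after LDHA, 39 after BNIP3 and 1 after HK2, but also 62 after GAPDH, which had 97.6% of its counts in the first table. The cause of the gap was not tested. PGAM1 was at 16.5 ± 4.66 CPM in control by the first table and 381 ± 4.57 CPM by the second (SD, n = 5). LDHA was at 447 ± 45.9 CPM in control by the first table and 699 ± 50.9 CPM by the second. LDHB had 97.1% of its counts in the first table. The order of LDHB above LDHA per kilobase therefore holds for the first table only and is uncertain.

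**Figure D1:**
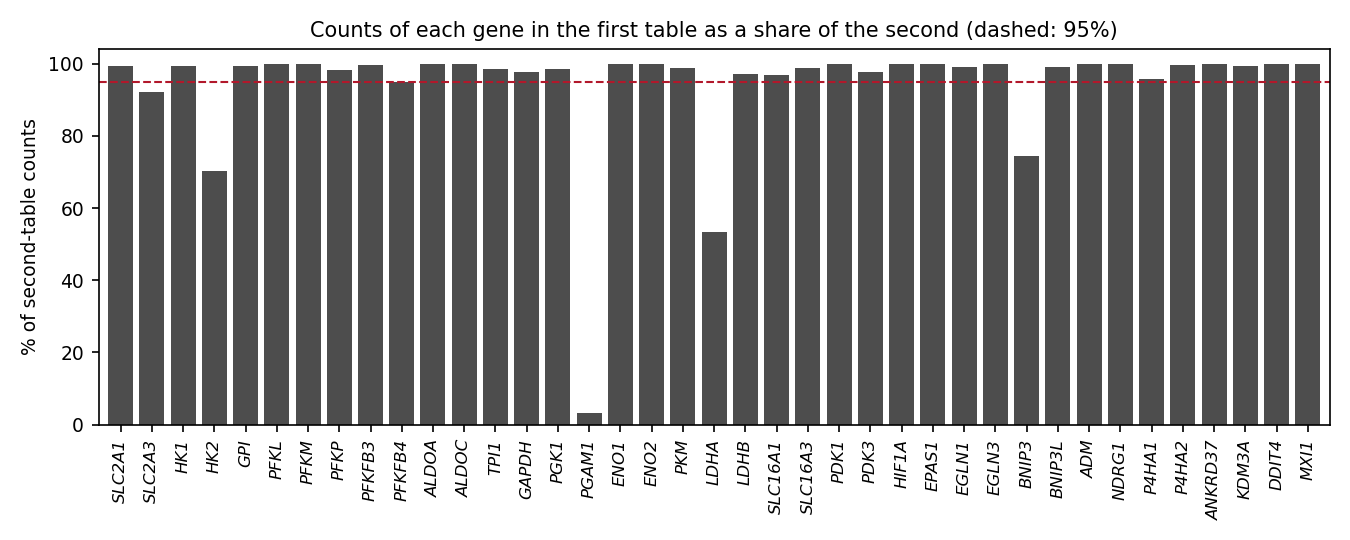
Counts of each of the 39 genes in the first deposited table as a percentage of those in the second, summed over 20 libraries (bars, y axis in percent). PGAM1 (3.07%), LDHA (53.3%), HK2 (70.4%) and BNIP3 (74.3%) fall well under the dashed line at 95%.

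Aldolase A is the main aldolase of most tissues, yet ALDOA had 12 counts over the 20 libraries and was at 0 in all 5 libraries with both proteins. Of its 3916 exon bases, 1657 (42.3%) also lie in exons of AC093512.2, an annotated gene on the same strand of chromosome 16, which had 0 counts in every library. Some counting rules drop reads that lie in overlapping genes, whether that happened here was not tested, and no level of ALDOA is read. EGLN3 had 24 counts over the 20 libraries.

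The members called higher with PDGF-BB were a glucose carrier, an isoform of phosphofructokinase and a lactate exporter. Only the call of the glucose carrier held in every fit that left out 1 library, and none held under spike-in scaling. These are SLC2A3 (GLUT3, a high-affinity glucose transporter), PFKP (the platelet-type phosphofructokinase) and SLC16A3 (MCT4, which exports lactate). The test averaged the PDGF-BB effect without and with eNAMPT, setting 10 libraries with PDGF-BB against 10 without. In that test 3 of 37 members passed at an adjusted p under 0.05 (edgeR quasi-likelihood, Benjamini-Hochberg over all tested genes), all of them higher, while 3.96% of all tested genes passed and 2.96% of all tested genes were called higher. An unadjusted p under 0.05 was reached by 7 members and 15.1% of genes. The members' share of 8.11% rests on 3 genes, and the members were chosen with earlier results of these data known. The median log2 fold change was 0.05 over the members and -0.01 over all genes. Of the 37 members 24 were above 0, beside 48.0% of all tested genes. Under spike-in scaling 18 members were above 0, and the medians were -0.013 and -0.07.

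SLC2A3 (ENSG00000059804, GRCh38 chromosome 12, 7919230 to 7936275, minus strand) gave the clearest change. Control libraries were at 36.7, 34.2, 27.3, 34.5 and 47.1 CPM and eNAMPT libraries at 37.9, 39, 32.4, 42.1 and 34.9 CPM, for replicates 1 to 5. PDGF-BB libraries were at 45.2, 40.5, 66.9, 45.0 and 54.6 CPM and libraries with both proteins at 42.9, 48.5, 43.6, 47.4 and 47.0 CPM. All 10 libraries with PDGF-BB lay above the median of those without, and 4 lay above every library without it, the overlap coming from control replicate 5 and eNAMPT replicate 4. The mean PDGF-BB effect was 0.40 on the log2 scale (SE 0.09, 95% interval 0.21 to 0.59), or 1.32-fold, with an adjusted p of 0.00656 by edgeR. It passed in each of the 20 fits that left out 1 library (adjusted p 0.00124 to 0.0279). In the second count table its effect was 0.29 (SE 0.09, adjusted p 0.0701). Spike-in scaling gave 0.33 with a wider SE of 0.15 (adjusted p 0.543). The call ended in both. The near-identical paralog SLC2A14 had 4 counts in all libraries together.

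**Figure D2:**
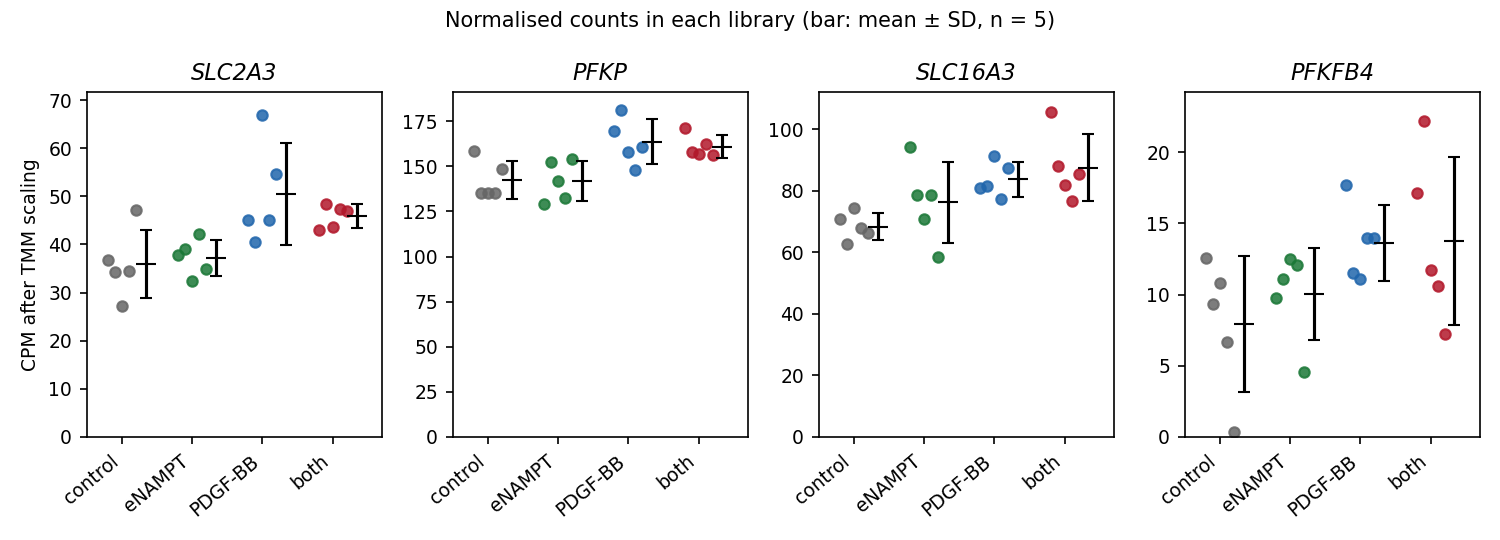
Normalised counts (y axis, CPM after TMM scaling, from 0) of SLC2A3, PFKP, SLC16A3 and PFKFB4 in each of the 20 libraries (points, in order of replicate number) by group, with mean ± SD beside them. Libraries with PDGF-BB lie higher, and the ranges overlap those of libraries without it for all 4 genes.

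PFKP (ENSG00000067057, chromosome 10, 3066333 to 3137712, plus strand) rose less. Its levels were 158, 135, 135, 135 and 148 CPM in control and 129, 152, 142, 132 and 154 with eNAMPT. They were 170, 181, 158, 148 and 161 CPM with PDGF-BB and 171, 158, 157, 162 and 156 with both. All 10 libraries with PDGF-BB exceeded the median of those without, 139 CPM, and the ranges overlapped between 148 and 158 CPM. The mean PDGF-BB effect was 0.19 (SE 0.06, 95% interval 0.08 to 0.30, adjusted p 0.0379 by edgeR). The call ended in 10 of the 20 fits that left out 1 library (adjusted p up to 0.0866): control replicates 2, 3 and 4, eNAMPT replicates 1, 3 and 4, PDGF-BB replicates 1 and 2, and the combined group's replicates 1 and 4. Of 8 other alternatives 6 kept the call, which ended under spike-in scaling, at 0.14 with an adjusted p of 0.977, and with genes kept at a total of at least 10 counts, at 0.19 with 0.0547.

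SLC16A3 (ENSG00000141526, chromosome 17, 82228397 to 82261129, plus strand) was at 70.7, 62.7, 74.5, 67.8 and 66.2 CPM in control and at 94.4, 78.6, 70.9, 78.7 and 58.4 with eNAMPT. PDGF-BB libraries held 80.9, 81.6, 91.2, 77.3 and 87.5 CPM and those with both proteins 105.4, 88.0, 81.9, 76.6 and 85.4. Every PDGF-BB library was above every control library, and the eNAMPT libraries spanned both. The mean PDGF-BB effect was 0.24 (SE 0.07, 95% interval 0.09 to 0.39, adjusted p 0.0496 by edgeR), at the edge of the threshold. It passed in 3 of the 20 fits that left out 1 library, those without replicate 3 of control, 1 of eNAMPT or 4 of the combination, and the highest adjusted p was 0.122. Of 8 other alternatives 2 kept the call. It ended under RLE scaling (adjusted p 0.0502), limma-voom (0.0509), the filters at a total of at least 10 counts (0.0525) and at 1 CPM in 5 libraries (0.0573), and in the second count table (0.0568), all at a log2 fold change between 0.24 and 0.25, and under spike-in scaling, at 0.17 with 0.934.

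Sequence upstream of these genes is shown for those whose listed windows carry the core of the hypoxia response element, the short motif that the hypoxia-inducible factors bind. From RefSeq (GRCh38.p14), windows of 250 bases before a transcript start were taken, with several windows for genes with several starts. Printed are windows of PFKP and SLC16A3, which passed in the mean PDGF-BB effect. A window of DDIT4, an inhibitor of mTORC1 known to be induced in hypoxia, which did not pass, is printed too. The printed windows were chosen after the values were seen and hold at most 10 annotated exon bases. All lie on the plus strand, and capitals mark ACGTG or GCGTG on either strand.
PFKP, chr10:3068939-3069188: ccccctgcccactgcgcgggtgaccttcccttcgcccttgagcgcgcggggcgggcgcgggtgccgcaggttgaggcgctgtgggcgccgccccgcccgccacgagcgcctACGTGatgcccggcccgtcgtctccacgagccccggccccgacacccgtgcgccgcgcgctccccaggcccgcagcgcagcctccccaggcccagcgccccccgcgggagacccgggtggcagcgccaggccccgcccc
SLC16A3, chr17:82228792-82229041: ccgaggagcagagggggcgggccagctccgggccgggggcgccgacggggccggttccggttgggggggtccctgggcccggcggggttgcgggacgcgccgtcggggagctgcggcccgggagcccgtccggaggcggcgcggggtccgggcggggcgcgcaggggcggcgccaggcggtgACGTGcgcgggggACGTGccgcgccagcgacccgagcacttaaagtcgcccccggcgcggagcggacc
DDIT4, chr10:72273674-72273923: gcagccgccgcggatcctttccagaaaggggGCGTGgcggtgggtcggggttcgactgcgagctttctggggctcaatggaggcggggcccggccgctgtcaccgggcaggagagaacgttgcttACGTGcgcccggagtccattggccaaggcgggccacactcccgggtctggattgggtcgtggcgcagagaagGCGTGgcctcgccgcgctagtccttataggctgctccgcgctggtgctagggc

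The printed PFKP window held 1 ACGTG, the SLC16A3 window 2, and the DDIT4 window 1 ACGTG and 2 GCGTG. For PFKP 4 windows were listed, of which 1 held ACGTG and 2 either core. For SLC16A3 5 were listed, of which 1 held ACGTG and 3 either core. DDIT4 had 1 listed window, and SLC2A3, which also passed in the mean PDGF-BB effect, had 0. Over 65 windows listed for 35 of the 39 members, ACGTG was in 36.9%, against 18.5% of all 35116 windows. GCGTG was in 36.9% against 32.2%, and either of them in 60.0% against 43.2%. The longer CACGTG, an E-box that contains ACGTG, was in 12.3% against 6.34%. The AP-1 motif TGANTCA was in 6.15% of member windows and 6.57% of all. These matches describe letters in the windows only. The mean PDGF-BB effect of DDIT4 was 0.14 (SE 0.14, adjusted p 0.722 by edgeR), with levels that overlapped between all groups.

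Without replicate number in the model, the pairwise tests called no member. With PDGF-BB alone against control, 0 of 37 passed, where 1.21% of all tested genes did. An unadjusted p under 0.05 was reached by 6 members, all higher, and by 9.64% of genes. With both proteins against control, 0 passed, where 1.98% of genes did, and 8 members and 10.9% of genes reached an unadjusted p under 0.05. Against eNAMPT alone, libraries with both had 0 passing members (1.53% of genes), with 3 members at an unadjusted p under 0.05 (10.9% of genes). DESeq2 and limma-voom also called 0 members in each of these comparisons. SLC2A3 was closest with PDGF-BB alone, at 0.49 (SE 0.13, adjusted p 0.0536 by edgeR), and it passed there without control replicate 5 or without PDGF-BB replicate 2. SLC16A3 was closest with both proteins, at 0.35 (SE 0.10, adjusted p 0.0734), and it passed there without eNAMPT replicate 5. With replicate number in the model (edgeR), SLC2A3 (adjusted p 0.00806) and PFKFB4 (0.0365) passed with PDGF-BB alone, where 3.11% of genes did. In that model SLC16A3 (0.0104) and PFKFB4 (0.0479) passed with both proteins against control, where 4.21% of genes did. Against eNAMPT alone it called 0 members (4.22% of genes). In the authors' deposited table SLC2A3 had an adjusted p of 0.0442 for control and PDGF-BB, the only one of 34 members with a value to fall under 0.05, and SLC16A3 had 0.0674 for control and both.

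Among regulators of phosphofructokinase, PFKFB4, a kinase and phosphatase of fructose-2,6-bisphosphate, had the largest fitted mean PDGF-BB effect of the 37 members, 0.61 (SE 0.23, 95% interval 0.14 to 1.08), and did not pass (adjusted p 0.159 by edgeR). Control libraries held 12.5, 9.37, 10.8, 6.68 and 0.341 CPM, the last from 1 count in replicate 5. Those with eNAMPT held 9.76, 11.1, 12.5, 12.1 and 4.57, those with PDGF-BB 17.7, 11.5, 11.1, 14.0 and 14.0, and those with both 17.1, 22.2, 11.7, 10.6 and 7.23. The groups overlapped, and replicate 5 was lowest in 3 of the 4 groups. Without control replicate 5 the effect was 0.46 with an adjusted p of 0.202. The effect passed only with replicate number in the model, at 0.66 (SE 0.18, adjusted p 0.00908 by edgeR), where 7.91% of genes passed. PFKFB3, the related and often growth factor-induced kinase, was at -0.03 (SE 0.09, adjusted p 0.931) without replicate number in the model.

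Of the other glycolytic steps, PGK1 (phosphoglycerate kinase) had the smallest p, with a mean PDGF-BB effect of 0.14 (SE 0.05, adjusted p 0.187 by edgeR). Group means of PGK1 were 168 ± 12.3 CPM in control, 175 ± 10.6 under eNAMPT, 184 ± 13.5 under PDGF-BB and 192 ± 13.9 under the combination (SD, n = 5). SLC16A1 (MCT1, a monocarboxylate transporter) was at 136 ± 6.68, 140 ± 4.68, 146 ± 7.32 and 154 ± 13.0 CPM in the same order, with a mean effect of 0.12 (SE 0.05, adjusted p 0.275). ALDOC, the brain-type aldolase, was at 4.85 ± 2.46 CPM in control and 3.65 ± 1.27 with PDGF-BB, and its mean effect of -0.56 (SE 0.29) did not pass (adjusted p 0.346). The most abundant enzymes had narrow intervals that held 0. The 95% interval of the mean PDGF-BB effect was -0.09 to 0.07 for GAPDH, -0.04 to 0.11 for ENO1, -0.07 to 0.12 for PKM, -0.01 to 0.15 for TPI1 and -0.09 to 0.11 for LDHA. For TPI1, which interconverts the triose phosphates, all 10 libraries with PDGF-BB lay above the median of those without, 758 CPM, and its effect of 0.07 (SE 0.04) did not pass (adjusted p 0.425). In all, 30 of 37 intervals lay within 0.5 of 0 on the log2 scale.

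**Figure D3:**
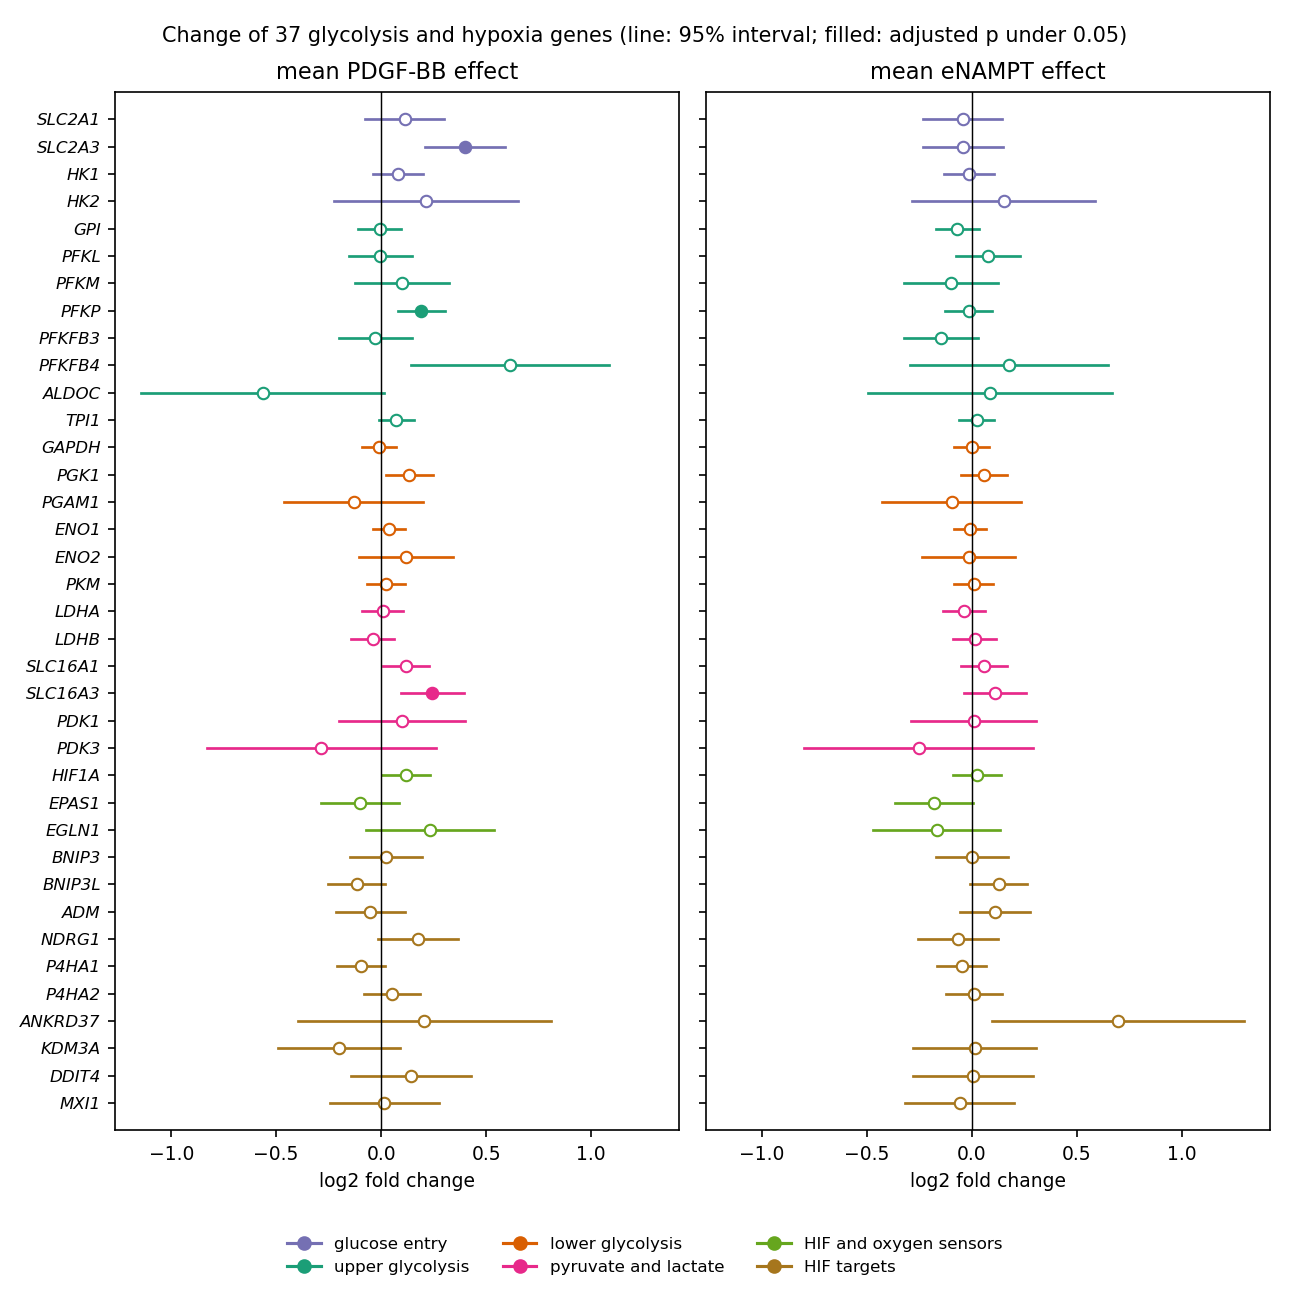
Fitted log2 fold change (x axis, points) with 95% interval (lines) of 37 members for the mean PDGF-BB effect (left) and the mean eNAMPT effect (right), coloured by role. Filled points mark an adjusted p under 0.05, which are SLC2A3, PFKP and SLC16A3 on the left and none on the right.

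HIF1A, the alpha subunit gene of the main hypoxia factor, was at 319, 302, 301, 261 and 343 CPM in control and at 297, 347, 306, 313 and 336 with eNAMPT. It was at 332, 351, 327, 314 and 382 with PDGF-BB and at 373, 378, 286, 312 and 334 with both. The groups overlapped, and the mean PDGF-BB effect of 0.12 (SE 0.06, 95% interval 0.01 to 0.23) did not pass (adjusted p 0.294 by edgeR). It passed only with replicate number in the model (adjusted p 0.0474 by edgeR), where 7.91% of genes passed. EPAS1 had a value of -0.10 (SE 0.09) and EGLN1 of 0.23 (SE 0.15), with adjusted p of 0.691 and 0.498. None of the 10 HIF target genes passed, and their mean PDGF-BB effects ran from -0.20 for the histone demethylase KDM3A to 0.21 for ANKRD37, with a median of 0.02. In that group were NDRG1 at 0.18 (SE 0.09), the vasodilator peptide gene ADM at -0.05 (SE 0.08), the mitophagy gene BNIP3 at 0.03 (SE 0.08) and the collagen prolyl hydroxylase P4HA1 at -0.10 (SE 0.06).

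eNAMPT left no member past the threshold. With eNAMPT against control 0 of 37 passed (0.0743% of all tested genes) and 1 member was under an unadjusted p of 0.05 (3.61% of genes). With both proteins against PDGF-BB alone 0 passed (0.0578%), and 2 members were under 0.05 before adjustment (3.4% of genes). In the mean eNAMPT effect 0 passed (0.157%), and ANKRD37 alone was under 0.05 before adjustment (3.63% of genes). Neither DESeq2 nor limma-voom called a member in these comparisons. The median mean eNAMPT effect of the members was -0.0014 on the log2 scale, and 32 of 37 intervals lay within 0.5 of 0. ANKRD37, a small ankyrin repeat gene induced in hypoxia, had the largest fitted value, 0.70 (SE 0.30, adjusted p 1.00 by edgeR). Its levels with both proteins were 2.09, 2.71, 8.13, 5.44 and 7.23 CPM, of which 3 exceeded all other libraries, while the control libraries were at 3.37, 2.58, 3.28, 0.801 and 3.75. EPAS1 had a mean eNAMPT effect of -0.18 (SE 0.09) and PFKFB3 a change of -0.25 (SE 0.12) with eNAMPT alone, neither of which passed (adjusted p 1.00 for both). PDK3, a kinase that switches off pyruvate dehydrogenase, was at -0.75 (SE 0.39, adjusted p 1.00) with both proteins against PDGF-BB alone.

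PFKL, the liver-type phosphofructokinase, showed a pattern of its own across the groups. Its levels were 37.6, 42.0, 42.7, 44.9 and 44.4 CPM in control and 54.1, 57.4, 52.1, 50.05 and 59.1 under eNAMPT. They were 57.6, 49.97, 57.2, 47.8 and 45.3 CPM under PDGF-BB, and 44.7, 45.8, 46.2, 44.3 and 41.4 under the combination. Every library with eNAMPT alone or PDGF-BB alone lay above every control library. For PDGF-BB the margin was narrow, 45.3 CPM at the lowest against 44.9 CPM at the highest in control. With both proteins the libraries overlapped control. The change was 0.37 (SE 0.11) with eNAMPT and 0.29 (SE 0.11) with PDGF-BB, at adjusted p of 0.646 and 0.269 by edgeR. The interaction, the change in the eNAMPT effect when PDGF-BB was present, was -0.58 (SE 0.15, 95% interval -0.88 to -0.28), with an unadjusted p of 0.000388 and an adjusted p of 0.999. No member passed for the interaction, where 0% of all tested genes did, and PFKL alone was under 0.05 before adjustment (3.35% of genes). Next in order were PDK3 at -0.99 (SE 0.54) and LDHB at 0.15 (SE 0.10). PFKL was singled out by its small p among 37 members, so this description has no test of its own that it passes.

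**Figure D4:**
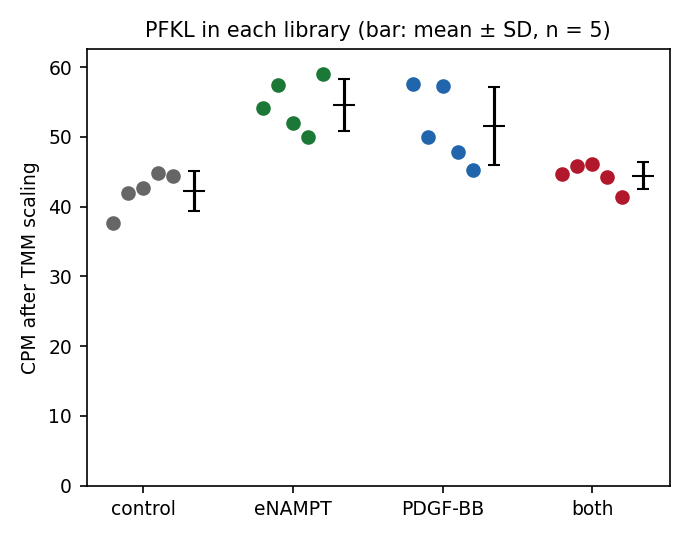
Normalised counts of PFKL (y axis, CPM after TMM scaling, from 0) in each library (points) by group, with mean ± SD (n = 5). The eNAMPT libraries (50.05 to 59.1 CPM) and the PDGF-BB libraries (45.3 to 57.6 CPM) lie above the control libraries (37.6 to 44.9 CPM), and the libraries with both (41.4 to 46.2 CPM) overlap control.

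Some members differed between libraries of different labelled replicate numbers, whatever the treatment. In a model with group and replicate number, 7 of 37 members (18.9%) passed for replicate number, where 12.8% of all tested genes did, so the members' share is not far from that of all genes. The labels do not say what a number stands for. NDRG1, a stress-responsive gene induced in hypoxia, was the first of these, with means of 103, 94.8, 95.6, 84.7 and 67.7 CPM for numbers 1 to 5 over 4 libraries each (adjusted p 1.03e-05 by edgeR). The 4 libraries numbered 5 held 67.2, 65.6, 75.7 and 62.1 CPM, in the order control, eNAMPT, PDGF-BB and both. ADM had means of 125, 112, 136, 156 and 132 CPM (adjusted p 0.000116), highest in number 4, and so a different order. GAPDH, often taken as a reference gene, ran from 3334 CPM in number 4 to 3808 in number 1 (adjusted p 0.000471), a ratio of 1.14, while its group means differed by a ratio of 1.01. PKM (adjusted p 0.00369), HIF1A (0.0115), PFKFB4 (0.0175) and DDIT4 (0.0205) also passed. DDIT4 averaged 13.8 CPM in number 5 and 22.0 to 23.1 CPM in the others. Calls for PFKFB4 and DDIT4 ended when replicate 5 of control, of eNAMPT or of the combination was left out, and that of HIF1A without control replicate 4.

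**Figure D5:**
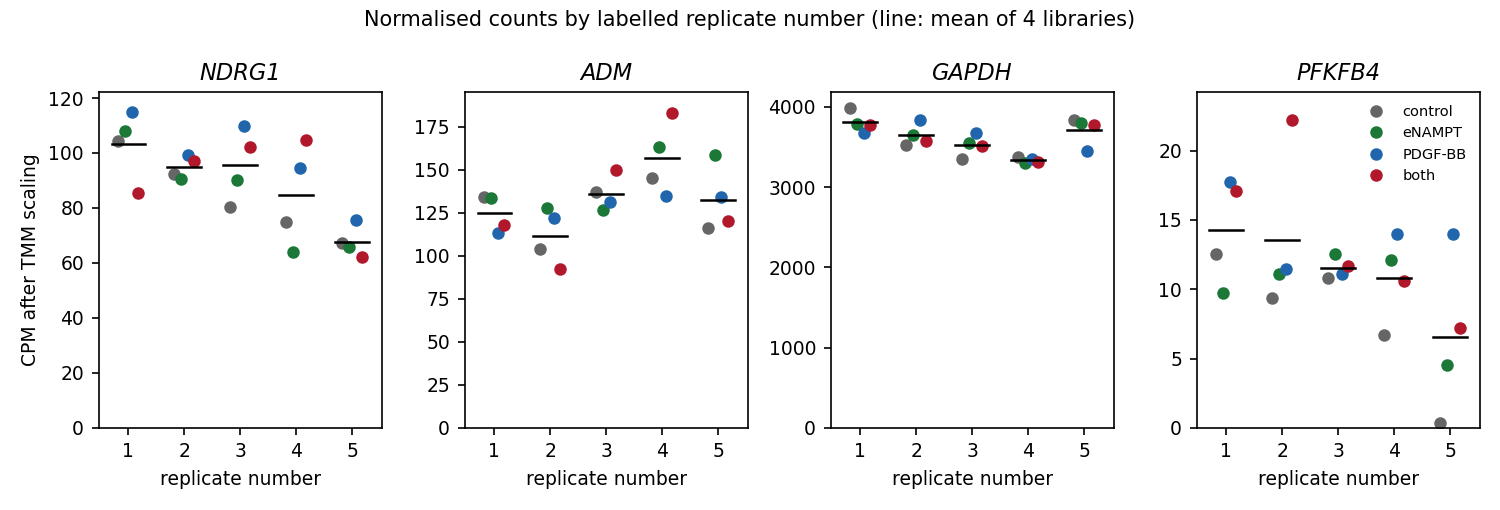
Normalised counts (y axis, CPM after TMM scaling, from 0) of NDRG1, ADM, GAPDH and PFKFB4 by labelled replicate number (x axis), 1 point per library coloured by group, with a line at the mean of 4 libraries. NDRG1 averages 67.7 CPM in number 5 against 84.7 to 103 CPM in the others, and ADM is highest in number 4 (156 CPM).

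Around the set, other genes of these pathways were read from 5 lists of 110 genes, of which 87 were tested. The lists were chosen with earlier results of these data known. Their shares beside those of all tested genes are therefore descriptive, here and in the paragraphs that follow on these lists. With PDGF-BB alone 5 rose and 1 fell, 6.90% of the 87 against 1.21% of all tested genes. The clearest was ANGPTL4, which encodes an inhibitor of lipoprotein lipase and rose by 1.33 on the log2 scale (SE 0.15, adjusted p 4.26e-08 by edgeR), from 25.9 ± 6.34 CPM in control to 65.0 ± 6.99 (SD, n = 5). STC1, a secreted glycoprotein gene, rose by 0.88 (SE 0.13, adjusted p 3.48e-05), from 199 ± 51.9 to 365 ± 47.7 CPM. The transcription factor genes rose less. BHLHE40 rose by 0.75 (SE 0.14, adjusted p 0.000813), from 25.5 ± 3.66 to 42.8 ± 3.58 CPM. MAFF rose by 0.74 (SE 0.13, adjusted p 0.000164), from 53.0 ± 11.8 to 88.6 ± 9.63 CPM. MYC, whose product also drives glycolytic genes, rose by 0.55 (SE 0.14, adjusted p 0.0294), from 25.5 ± 3.44 to 37.4 ± 6.15 CPM. TXNIP, which restrains glucose uptake, fell by 0.50 (SE 0.11, adjusted p 0.00517), from 80.7 ± 11.8 to 57.0 ± 3.48 CPM.

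With both proteins against control 7 rose and 2 fell, 10.3% of the 87 against 1.98% of all tested genes. The 6 genes named for PDGF-BB alone passed again, and KLF6, EDN1 and PNRC1 were added. KLF6, a transcription factor gene, rose by 0.40 (SE 0.08, adjusted p 0.00253 by edgeR), from 136 ± 10.7 CPM in control to 180 ± 21.6 (SD, n = 5). EDN1, which encodes a vasoconstrictor peptide, rose by 0.66 (SE 0.18, adjusted p 0.0401), from 80.7 ± 21.3 to 127 ± 38.1 CPM. PNRC1, a nuclear receptor coactivator gene, fell by 0.61 (SE 0.17, adjusted p 0.0370), from 36.5 ± 5.75 to 23.8 ± 6.99 CPM. The calls of EDN1 and PNRC1 ended in the second count table.

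In the mean PDGF-BB effect 8 rose and 3 fell, 12.6% of the 87 against 3.96% of all tested genes. Those that fell were TXNIP, PNRC1 and VLDLR, a lipoprotein receptor gene, and the risers included KLF6 and the angiogenic factor VEGFA. The mean effect of VEGFA was 0.72 (SE 0.14, adjusted p 0.000392 by edgeR). It was at 21.9 ± 8.01 CPM in control and 31.8 ± 6.09 with PDGF-BB, a pair in which it did not pass (0.54, SE 0.19, adjusted p 0.223), and at 18.3 ± 3.72 with eNAMPT and 34.1 ± 6.37 with both proteins (SD, n = 5).

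By list, the mean PDGF-BB effect called 9 of 40 tested genes among other hypoxia-induced genes, 1 of 13 regulators of the HIF pathway (MYC) and 1 of 12 other sugar carriers, kinases and isoforms (TXNIP). It called 0 of 15 genes of pyruvate, lactate and gluconeogenic steps and 0 of 7 of the pentose phosphate pathway, where 3.96% of all tested genes passed. The medians of the 5 lists lay between -0.05 and 0.08, beside -0.01 over all genes. With eNAMPT against control 0 of the 87 passed. Under spike-in scaling 3 rose and 0 fell with PDGF-BB alone (ANGPTL4, STC1 and MAFF), 2 rose and 0 fell with both proteins, and 6 rose and 3 fell in the mean PDGF-BB effect. STC1 and ANGPTL4 are the pathway genes with the widest shifts among those that rose in the mean PDGF-BB effect, at 1.06 and 1.52, against 0.40 for SLC2A3.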

How the data were processed

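RNA sequencing counts of 20 libraries, 4 groups of 5, were analysed. The authors deposited raw counts per gene and library, and the submitters' processing notes name GRCh38, featureCounts 1.6.4, STAR 2.6.1a, DESeq2 1.18.1 and FastQC 0.11.7 without their roles. The authors also deposited log2 fold changes and adjusted p-values for pairs of groups, and a second count table. The 92 ERCC and 7 SIRV spike-in rows were kept out of library sizes and gene tests (1.57% to 2.91% of counts). GENCODE 29 held all 58676 identifiers, 58631 of them at the same chromosome and start.

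Genes were filtered with filterByExpr at default settings, scaled by TMM and fitted with one mean per group in edgeR 4.0.16 (glmQLFit, glmQLFTest, two-sided; R 4.3.3). P-values were adjusted by Benjamini-Hochberg over 12111 genes in each of 8 treatment comparisons and in the test of replicate number, and a gene passed under 0.05. The standard error is the log2 fold change divided by the square root of F. CPM are counts per 1000000 after TMM. All comparisons with control share its libraries, so they are not independent. The fits were tested on simulated counts.

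Alternatives were RLE and spike-in scaling, other filters on low counts (CPM of at least 1 in 5 libraries, or a total of at least 10), the second table, a replicate block, limma-voom (limma 3.58.1), DESeq2 1.42.0, fits of only the groups compared, and leaving out each library in turn. Members and lists were chosen with earlier results of these data known. Full statistics went to members that passed, to those with the smallest p for PDGF-BB (10), eNAMPT (5), interaction (3) and replicate number (6), and to every listed pathway gene that passed against control; DDIT4, ALDOC and the members given by role stand outside that rule and were chosen after their values were seen. Depth limits low genes such as PFKFB4, ANKRD37 and PDK3, and counting error is part of their spread.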

Additional observations from a re-analysis of the deposited data

Results flagged for a closer look

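Single libraries stood far from the other 4 of their group, by the gap divided by the range, in 9 of 148 groups of 5 examined. Chance alone marks about 1 in 20 such groups, so the number of cases is near what chance gives. Their spread over replicate numbers is uneven, with 6 of the 9 in libraries numbered 5. HK2 was at 15.3 CPM in control replicate 1, against 5.49 to 8.19 in the others, and at 16.3 CPM in eNAMPT replicate 5, against 7.01 to 9.51. PFKFB3 was at 54.1 CPM in replicate 1 with both proteins (others 44.3 to 46.8), and PGAM1 at 22.8 CPM in replicate 2 with both (others 9.10 to 12.7). In control replicate 5, ENO1 was low at 1753 CPM (others 1928 to 1996), LDHB high at 399 CPM (others 341 to 351) and PDK3 high at 7.85 CPM (others 2.45 to 3.55). PKM was low in PDGF-BB replicate 5 at 1117 CPM (others 1268 to 1322), and DDIT4 low in replicate 5 with both at 10.5 CPM (others 23.6 to 25.7).

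Group means of PFKL moved in opposite directions with eNAMPT, without and with PDGF-BB, and neither change passed. Every eNAMPT library was above every control library, and with PDGF-BB present the eNAMPT libraries were lower on average. The same holds for PDGF-BB without and with eNAMPT. The difference was tested as the interaction, -0.58 on the log2 scale, with an adjusted p of 0.999 by edgeR.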

How the results depend on the processing

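The number of members passing in the mean PDGF-BB effect was 3, and 0 under spike-in scaling, 1 with genes kept at a total of at least 10 counts (SLC2A3), 1 in the second count table (PFKP), and 1 to 2 when a library was left out. In PDGF-BB against control and in both against control the number was 0, and 0 to 1 when a library was left out; for replicate number it was 7, with 5 to 8. Spike-in scaling put the median of all genes at -0.14 for both against control, -0.15 against PDGF-BB, -0.14 against eNAMPT and -0.16 for the interaction, and moved the members' median for both against control from 0.06 to -0.08, with 9 of 37 members above 0 in place of 24. For the mean PDGF-BB effect it left 18 of 37 above 0. It reversed the interaction of LDHB, from 0.15 to -0.023. Spike-in scaling also cut the genes passing from 147 to 40 with PDGF-BB, 240 to 50 with both, 185 to 31 for both against eNAMPT, 7 to 2 for both against PDGF-BB, 480 to 129 in the mean PDGF-BB effect and 19 to 12 in the mean eNAMPT effect. The cause of these moves was not tested. With a replicate block, 5 members passed in the mean PDGF-BB effect (with PFKFB4 and HIF1A added), 2 with PDGF-BB (SLC2A3 and PFKFB4) and 2 with both (PFKFB4 and SLC16A3), and the genes passing were 958, 377 and 510, with 511 for both against eNAMPT, 21 for eNAMPT, 15 for both against PDGF-BB and 7 for the interaction. Same-numbered libraries of different groups correlated, in deviations from group means, at 0.00138 to 0.176, over 0.1 in 12 of 30 pairs. Of the 30, 22 matched their own number best among the 5 libraries of the other group, a hint from the data and not the design. Replicate number passed for 12.8% of all tested genes. The numbers were not taken to pair libraries because the labels do not say what a number stands for. These correlations cannot decide whether they do. In fits of only the groups compared, 11 genes passed for both against PDGF-BB in place of 7. Under the alternatives not named here 2 to 3 members passed in the mean PDGF-BB effect and 6 to 7 for replicate number. In eNAMPT against control, both against PDGF-BB, both against eNAMPT, the interaction and the mean eNAMPT effect, 0 members passed under each alternative run.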
